A study of Homo sapiens with 10 samples.

Results

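The genes described here are 44 genes of the G1/S transition and DNA replication, of 60448 genes counted by RNA sequencing in a pair of untreated human endothelial cell lines. The members were chosen by role, with earlier results of these data known. They run from the transcription factors and cyclins that start S phase to the enzymes that copy DNA and the factors that repackage it. EA.hy926 is a hybrid line made by fusing human umbilical vein endothelial cells with A549, a lung adenocarcinoma epithelial line, and it was grown in Advanced DMEM with fetal bovine serum. HMEC-1 is a line of dermal microvascular endothelial cells transfected with the SV40 large T antigen, a viral protein that binds the RB family. It was grown in MCDB 131 with epidermal growth factor, hydrocortisone and a higher percentage of fetal bovine serum than EA.hy926. Both lines carry the genotype label WT, and each gave 5 libraries from independent cultures that had formed a confluent monolayer. Each line is a single immortal line, so its medium, donor, tissue of origin and way of immortalization cannot be told apart from the line itself.

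Cells enter S phase when cyclin E and CDK2 free the activating E2F factors from the RB family of pocket proteins. E2F factors then switch on genes for the loading of the MCM helicase at origins, for the polymerases and for the supply of deoxynucleotides, and they do so through short motifs near the start sites of those genes. These mRNAs are low in resting endothelium and rise in cells that cycle.

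Promoter sequences were read from RefSeq for 39 of the 44 members, as windows of 300 bases, 250 before and 50 after the start, on GRCh38.p14. CCNE2, E2F8, MCM4, MCM5 and RPA2 had no entry. Because the members were chosen among genes known to be E2F-regulated, the share with the motif is a description of them and no test of it was made. The letters TTTCCCGC, TTTGGCGC, TTTGCCGC and TTTCGCGC were searched on both strands, and capitals in the windows below mark a match, written as found on the gene's own strand. Among the 39 genes with a window, those with the highest (CCNE1) and the lowest (RFC3) log2 fold change between the lines are shown, with E2F1 and MCM6, the gene with most matches.
CCNE1, chr19:29811741-29812040, plus strand: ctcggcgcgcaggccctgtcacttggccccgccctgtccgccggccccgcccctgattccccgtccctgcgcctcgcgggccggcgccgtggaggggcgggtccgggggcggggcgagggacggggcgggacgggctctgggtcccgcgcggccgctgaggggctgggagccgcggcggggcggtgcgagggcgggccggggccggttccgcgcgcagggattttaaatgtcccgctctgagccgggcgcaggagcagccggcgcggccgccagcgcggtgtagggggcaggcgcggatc
RFC3, chr13:33817899-33818198, plus strand: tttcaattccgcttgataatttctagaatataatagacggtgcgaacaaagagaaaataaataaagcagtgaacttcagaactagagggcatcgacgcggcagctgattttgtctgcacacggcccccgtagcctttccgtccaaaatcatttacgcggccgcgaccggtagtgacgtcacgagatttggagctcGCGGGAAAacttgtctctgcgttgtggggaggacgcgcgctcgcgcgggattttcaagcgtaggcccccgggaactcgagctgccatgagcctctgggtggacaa
E2F1, chr20:33686336-33686635, minus strand: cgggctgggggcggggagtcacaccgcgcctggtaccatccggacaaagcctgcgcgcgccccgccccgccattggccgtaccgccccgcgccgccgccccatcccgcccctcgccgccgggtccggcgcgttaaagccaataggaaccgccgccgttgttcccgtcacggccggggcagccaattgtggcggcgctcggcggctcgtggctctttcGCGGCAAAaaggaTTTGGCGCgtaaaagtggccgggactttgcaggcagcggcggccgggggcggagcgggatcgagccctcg
MCM6, chr2:135876394-135876693, minus strand: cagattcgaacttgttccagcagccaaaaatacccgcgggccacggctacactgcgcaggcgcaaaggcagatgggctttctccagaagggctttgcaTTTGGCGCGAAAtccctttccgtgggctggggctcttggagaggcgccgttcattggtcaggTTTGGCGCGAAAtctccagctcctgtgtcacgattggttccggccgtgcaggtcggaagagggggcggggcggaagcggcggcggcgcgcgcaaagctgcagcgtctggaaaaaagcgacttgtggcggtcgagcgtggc

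CCNE1 had 0 matches in its window, and no match says only that these letters are not in it. RFC3 had 1, which began 55 bases before the start. E2F1, whose product acts on its own promoter among others, had 2, at 33 and 20 bases before the start. MCM6 had 4 matches at 2 places, since each capital run reads as a match on either strand with shared bases. A match was found in 21 of 39 members (53.8%), in 6.53% of the 11378 genes tested for expression that had a window, and in 3.99% of all 27305 genes with a window. Counted by window, 21 of the 49 members' windows held a match (42.9%), against 3.32% of all windows. The 28 matches of the members lay at a median of 36.5 bases before the start, and 22 of them (78.6%) lay between 100 bases before and 50 bases after it. In the other genes tested, 803 matches had a median of 101 bases before the start and 49.9% lay in that interval. The CCAAT box (CCAAT) was in the windows of 61.5% of members and of 42.7% of genes tested, and the GC box (GGGCGG), whose letters can share bases with the E2F motif, in 79.5% and 75.4%. The CHR element (TTTGAA), known from genes of G2 and mitosis, was in 7.69% of members and 13.9% of genes tested. Among the members, the median log2 fold change between the lines was -0.61 for the 21 with an E2F match and -0.78 for the 18 without.

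**Figure D1:**
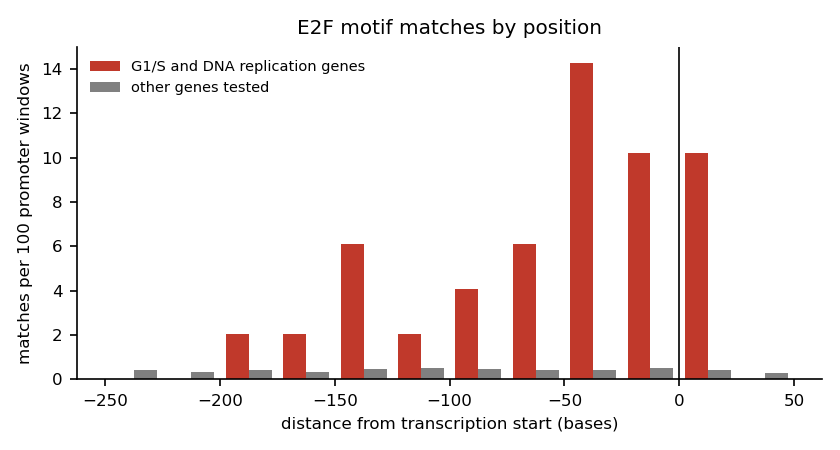
E2F motif matches by distance of the match from the transcription start (bases, in bins), as matches per 100 promoter windows, for the replication genes (red) and the other genes tested (grey). The members' matches were most frequent between 50 bases before and 25 after the start, while no bin of the other genes held over 0.493 matches per 100 windows.

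Total counts of the EA.hy926 libraries ran from 34846046 to 39899324 and those of the HMEC-1 libraries from 33391640 to 43877224. Levels are given as CPM (a gene's share of its library's counts, in parts per 1000000) scaled by TMM. That method sets the libraries' totals on the assumption that most genes do not differ. Fold changes are log2 of EA.hy926 over HMEC-1 with a standard error (SE), from the quasi-likelihood test of edgeR with Benjamini-Hochberg adjustment over the 16310 genes that passed the filter on low counts. All 44 members passed it, and the lowest count of any member in any library was 221. The lines differed widely: 85.8% of genes tested passed an adjusted p of 0.05. Of 12 endothelial markers 10 were higher in EA.hy926, CLDN5 was lower, with 0 to 5 counts in EA.hy926, and KDR did not pass (summed level 5987 to 6711 CPM against 2104 to 2174). Of 8 epithelial markers 6 were tested, of which 4 were higher in EA.hy926 and KRT19 and CLDN4 lower (log2 fold changes -4.71 and -1.42). Their summed level was 1275 to 1389 CPM in EA.hy926 but 425 to 487 CPM in the HMEC-1 libraries, and CDH1 and ESRP1 had at most 2 counts in any library. Of 6 fibroblast markers 4 were tested and all 4 were lower in EA.hy926. Their sum was at most 1.6 CPM in any EA.hy926 library but 473 to 502 CPM in those of HMEC-1, with COL1A1 at 358 CPM there and DCN and LUM at 0 counts in every library. The part of these marker differences in the levels of the replication genes was not tested.

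The replication genes were mostly lower in EA.hy926. At an adjusted p of 0.05, 37 of 44 were lower, 6 were higher and 1, GINS3, did not pass, where 43.3% of all genes tested were lower and 42.6% higher. With a log2 fold change beyond 1 required as well, 16 were called (35.5% of all genes tested), of which 15 were lower and 1 was higher, beside 16.4% and 19.1% of all genes tested. All 5 EA.hy926 libraries lay below all 5 HMEC-1 libraries for 37 members (39.2% of all genes) and above them for 6 (38.3%), so that the lines did not overlap for 43 (77.4%). The median log2 fold change of the members was -0.79, with quartiles of -1.12 and -0.54 and a range from -1.96 to 1.28, and the median of all genes tested was -0.01. Summed over the members, the level was 3214, 3324, 3540, 3527 and 3646 CPM in the EA.hy926 libraries and 5329, 5432, 5395, 5411 and 5392 CPM in those of HMEC-1. In bulk libraries, fewer cells in S phase and less of these mRNAs per cell cannot be told apart. The study reports similar doubling times of the lines in separate growth assays. It describes the EA.hy926 monolayer as contact-inhibited and that of HMEC-1 as denser and overgrown. The part of either in these levels was not tested. Scaling by library totals in place of TMM moved every log2 fold change down by a median of 0.13, and GINS3 was then lower.

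**Figure D2:**
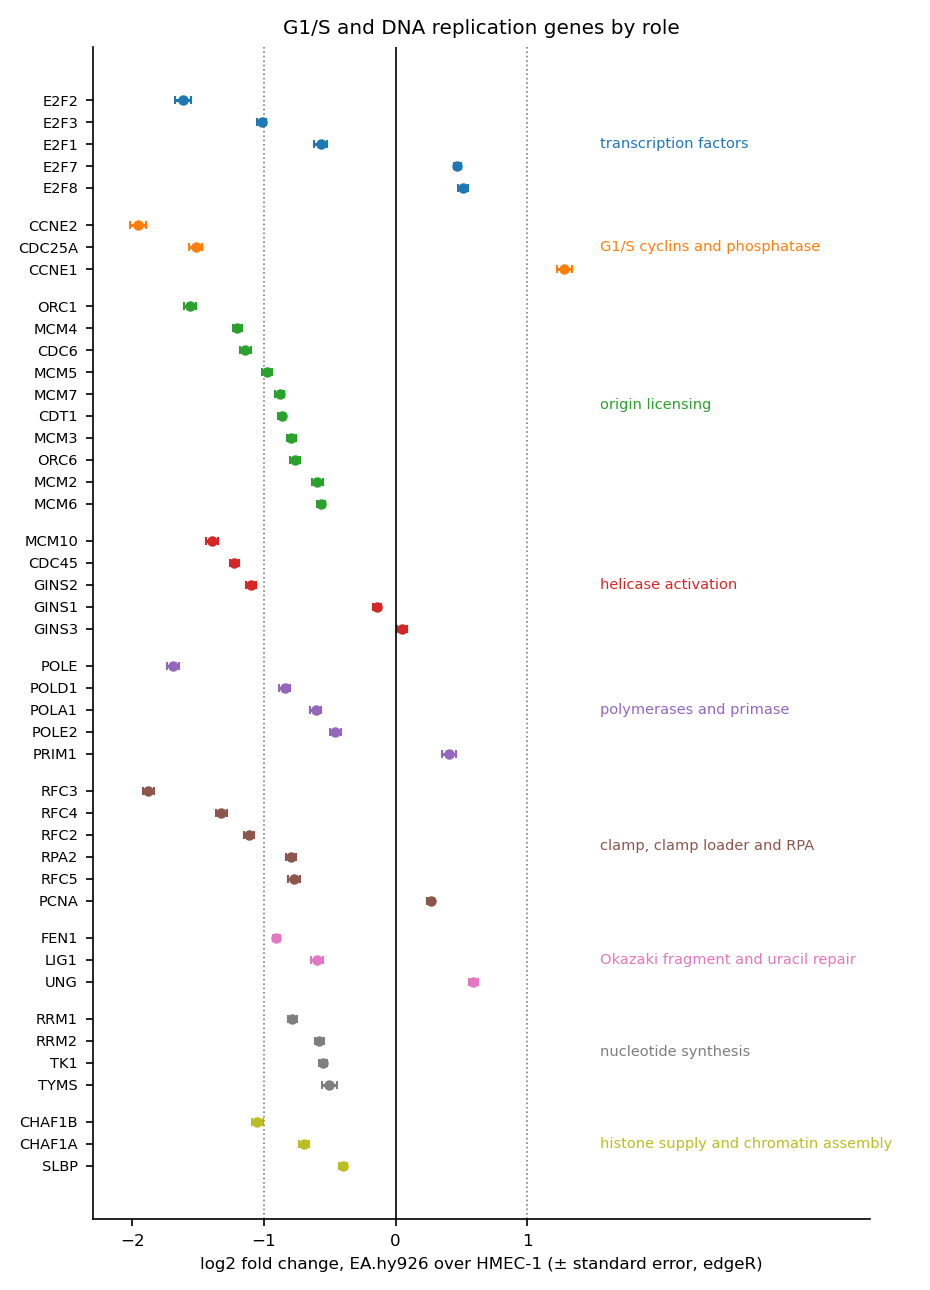
Log2 fold change of each of the 44 replication genes between EA.hy926 and HMEC-1 (points, with the standard error of the edgeR fit), grouped and coloured by role, with dotted lines at the fold threshold of 1. The members of origin licensing and nucleotide synthesis all lie left of 0, and CCNE1 alone lies right of the upper threshold.

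The G1/S regulators held the members with the largest differences in each direction. CCNE1 and CCNE2 encode the alternative E cyclins of CDK2. CCNE1 stood at 15.6, 16.1, 16.9, 17.0 and 18.6 CPM in EA.hy926 and at 7.04, 6.76, 6.83, 6.85 and 7.22 CPM in HMEC-1. Every EA.hy926 library was above every HMEC-1 library, with a log2 fold change of 1.28 (SE 0.06, adjusted p = 7.3e-15). CCNE2 stood at 7.58, 6.66, 8.31, 6.74 and 8.03 CPM in EA.hy926 and at 27.0, 29.3, 28.5, 28.5 and 31.5 CPM in HMEC-1. It went the other way without overlap, 3.88-fold higher in HMEC-1 with a log2 fold change of -1.96 (SE 0.06, adjusted p = 1.1e-17), but 37.1% of its exonic bases overlap INTS8 on the opposite strand and the strand setting of the counting was not given. Per kilobase of exon, the mean ratio of CCNE1 to CCNE2 was 4.04 in EA.hy926 and 0.429 in HMEC-1. EA.hy926 thus had more CCNE1 than CCNE2 mRNA per length, and HMEC-1 had less. The log2 ratio differed by 3.24 between the lines (two-sided exact permutation test, p = 0.00794, the smallest that 5 against 5 libraries allow, and 0.00952 adjusted over 6 ratios). Each cyclin gene alone separated the lines, in opposite directions, so their ratio had to separate them too. Its p-value was thus fixed beforehand and adds no support. CDC25A, the phosphatase that removes inhibitory phosphates from CDKs, stood at 14.9, 15.9, 16.9, 16.1 and 18.8 CPM in EA.hy926 and at 47.1, 50.4, 47.8, 45.2 and 46.3 CPM in HMEC-1. Its level was 2.86-fold higher in HMEC-1 (log2 fold change -1.52, SE 0.05, adjusted p = 2.6e-17).

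The E2F factors divided by type. The 3 activators E2F1, E2F2 and E2F3 were lower in EA.hy926, and the 2 atypical repressors E2F7 and E2F8 were higher. E2F2 showed the largest difference of the family, at 7.74, 7.92, 8.20, 7.86 and 10.1 CPM in EA.hy926 and 25.1, 24.6, 25.5, 25.9 and 27.2 CPM in HMEC-1. The lines did not overlap, and the log2 fold change was -1.62 (SE 0.06, adjusted p = 3.8e-16). E2F3 was at 25.5 ± 1.15 CPM (SD, n = 5) in EA.hy926 and 51.5 ± 1.14 in HMEC-1, a log2 fold change of -1.02. E2F1 was at 61.4 ± 6.17 and 91.2 ± 1.91 CPM, a log2 fold change of -0.57. The per-kilobase ratio of E2F1 to E2F3 was therefore higher in EA.hy926, at 4.63 against 3.42, a log2 difference of 0.44 (exact permutation test, p = 0.00794, adjusted 0.00952). E2F7 was at 87.6 ± 1.46 CPM in EA.hy926 and 63.3 ± 1.29 in HMEC-1, and E2F8 at 38.0 ± 1.52 and 26.7 ± 0.655, log2 fold changes of 0.47 and 0.51.

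**Figure D3:**
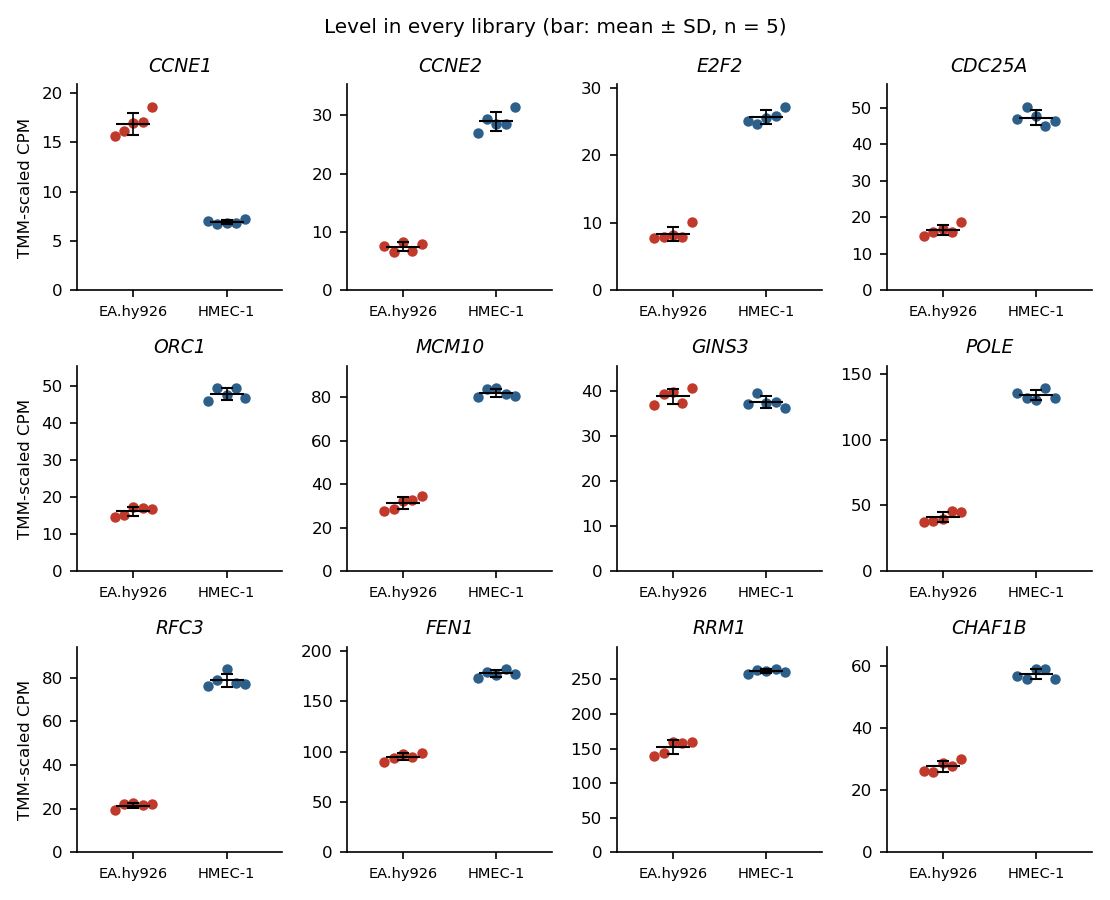
TMM-scaled CPM in every library (points) of 12 replication genes in EA.hy926 (red) and HMEC-1 (blue), with the mean and SD of 5 libraries, on axes that start at 0. CCNE1 is higher in all EA.hy926 libraries, GINS3 overlaps between the lines, and the other 10 genes are lower in all EA.hy926 libraries.

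All 10 origin licensing genes were lower in EA.hy926, with log2 fold changes from -1.56 to -0.57. The origin recognition complex marks origins, and CDC6 and CDT1 then load the MCM2 to MCM7 ring on them. ORC1, the largest subunit of the complex, stood at 14.6, 15.2, 17.3, 17.2 and 16.9 CPM in EA.hy926 and at 46.1, 49.6, 47.6, 49.6 and 46.7 CPM in HMEC-1. It was 2.95-fold higher in HMEC-1 with no overlap (log2 fold change -1.56, SE 0.05, adjusted p = 4.5e-18). ORC6, CDC6 and CDT1 had log2 fold changes of -0.76, -1.14 and -0.87. The 6 ring subunits had values of -0.60 (MCM2), -0.79 (MCM3), -1.20 (MCM4), -0.98 (MCM5), -0.57 (MCM6) and -0.88 (MCM7). Of the exonic bases of MCM2, 23.6% overlap other genes, mainly on the opposite strand. The ring holds its subunits in equal number, and their mRNA levels per kilobase of exon spread over 3.48-fold in EA.hy926 and 3.06-fold in HMEC-1. MCM3 and MCM7 had the highest levels in both lines, at 47.2 ± 3.30 and 43.0 ± 2.73 CPM per kilobase in EA.hy926 and 81.6 ± 1.52 and 79.1 ± 1.11 in HMEC-1, and overlapped between libraries of a line. MCM5 was lowest in both lines, at 13.5 ± 1.02 and 26.7 ± 0.413. The order of MCM3 and MCM7, and the lowest member in HMEC-1, depended on the transcript length used.

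CDT1 is held back by geminin, the product of GMNN. GMNN was lower in EA.hy926 by more than CDT1 was, at 18.5 ± 0.787 CPM against 84.1 ± 1.90, a log2 fold change of -2.19 (SE 0.03). CDT1 was at 43.2 ± 0.666 and 78.8 ± 2.75 CPM. The per-kilobase ratio of CDT1 to GMNN was 2.10 in EA.hy926 and 0.840 in HMEC-1, a log2 difference of 1.32 (exact permutation test, p = 0.00794, adjusted 0.00952). With MANE Select lengths the ratios were 1.11 and 0.444, and the log2 difference, which does not depend on length, was the same.

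The genes that turn the loaded ring into an active helicase differed in unlike degrees. MCM10, which acts as the helicase is activated, stood at 27.8, 28.8, 32.3, 32.8 and 34.5 CPM in EA.hy926 and at 80.1, 83.6, 84.4, 81.2 and 80.6 CPM in HMEC-1, a log2 fold change of -1.39 (SE 0.04, adjusted p = 1.7e-17). Its lines did not overlap. CDC45, a subunit of the active helicase, had a log2 fold change of -1.22. Of the GINS complex, the other partner of the ring, GINS2 was lower by -1.10 and GINS1 by -0.14 on the log2 scale. GINS3 stood at 37.0, 39.5, 39.8, 37.3 and 40.8 CPM in EA.hy926 and at 37.1, 39.7, 37.4, 37.6 and 36.3 CPM in HMEC-1. The lines overlapped, and the log2 fold change of 0.05 (SE 0.04) did not pass (adjusted p = 0.23). GINS4, outside the 44 members, had a log2 fold change of -1.26, and 23.4% of its exonic bases overlap other genes, mainly on the opposite strand. Per kilobase, GINS4 was below GINS3 in every EA.hy926 library, at 3.37 ± 0.277 against 7.62 ± 0.324 CPM, also with other transcript lengths. In HMEC-1 the GINS4 level of 8.08 ± 0.589 CPM overlapped with the 7.36 ± 0.243 of GINS3, but with MANE Select lengths GINS4 was below GINS3 there too, at 11.7 ± 0.851 against 17.1 ± 0.563.

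Of the polymerase and primase genes, 4 were lower in EA.hy926 and PRIM1 was higher. POLE encodes the catalytic subunit of the polymerase that copies the leading strand. It stood at 37.6, 38.4, 40.1, 46.0 and 45.1 CPM in EA.hy926 and at 135, 132, 130, 139 and 132 CPM in HMEC-1. The lines did not overlap and the level was 3.22-fold higher in HMEC-1 (log2 fold change -1.69, SE 0.05, adjusted p = 6.9e-19). Its partner subunit POLE2 had a log2 fold change of -0.46. Per kilobase, POLE2 was above POLE in every EA.hy926 library, at 6.77 ± 0.241 against 3.35 ± 0.314 CPM, and POLE above POLE2 in HMEC-1, at 10.8 ± 0.306 against 9.31 ± 0.291, where they overlapped with other transcript lengths. POLD1, the catalytic subunit of the lagging-strand polymerase, and POLA1, which extends primers, had log2 fold changes of -0.84 and -0.61. PRIM1, the catalytic primase, was at 31.9 ± 2.27 CPM in EA.hy926 and 24.0 ± 2.01 in HMEC-1, a log2 fold change of 0.41 (SE 0.06, adjusted p = 8.1e-07). Of its exonic bases, 19.1% overlap other genes, mainly a gene on the same strand, where reads are ambiguous with any strand setting.

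PCNA, the sliding clamp, went against its own loader. It stood at 435 ± 18.9 CPM in EA.hy926 and 362 ± 6.94 in HMEC-1, a log2 fold change of 0.27 (SE 0.03, adjusted p = 1.9e-08), and of 0.13 with library totals. The 4 loader subunits among the members were all lower in EA.hy926. RFC3 stood at 19.2, 22.0, 22.5, 21.5 and 22.0 CPM in EA.hy926 and at 76.3, 78.7, 84.2, 77.4 and 77.2 CPM in HMEC-1. Without overlap, it was 3.68-fold higher in HMEC-1 (log2 fold change -1.88, SE 0.04, adjusted p = 1.7e-20). RFC4, RFC2 and RFC5 had log2 fold changes of -1.32, -1.11 and -0.77. Per kilobase, RFC3 was the lowest of the 5 loader subunits in EA.hy926, at 7.50 ± 0.456 CPM, below RFC4 in every library, and lowest with other transcript lengths too. In HMEC-1 RFC5 was lowest with each length, and RFC3 was at 27.6 ± 1.10 CPM per kilobase, in a rank that depended on the length. RPA2, a subunit of the protein that coats unwound DNA, had a log2 fold change of -0.79.

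**Figure D4:**
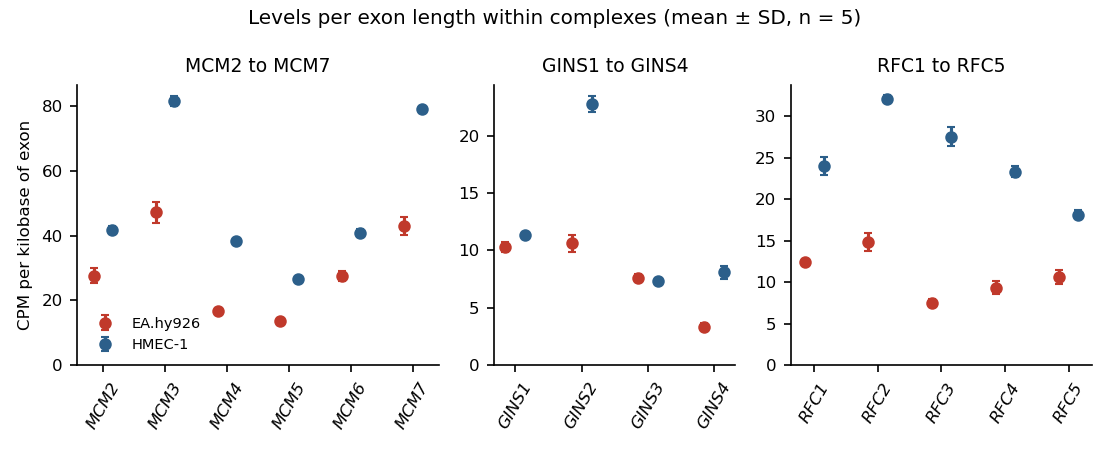
Mean level per kilobase of exon (CPM per kilobase, bars are the SD of 5 libraries) of the subunits of the MCM ring, the GINS complex and the clamp loader in EA.hy926 (red) and HMEC-1 (blue). GINS1 and GINS3 lie close together in the lines, and GINS4 and RFC3 are the lowest subunits of their complexes in EA.hy926.

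FEN1, the nuclease that trims Okazaki fragments, stood at 90.0, 93.6, 97.7, 94.4 and 98.9 CPM in EA.hy926 and at 173, 179, 176, 182 and 177 CPM in HMEC-1. All EA.hy926 libraries were below those of HMEC-1 (log2 fold change -0.90, SE 0.03, adjusted p = 9.4e-18). LIG1, which joins the fragments, had a log2 fold change of -0.60. UNG, which removes uracil from DNA, had the largest positive log2 fold change after CCNE1. It was at 117 ± 5.68 CPM in EA.hy926 and 77.6 ± 2.38 in HMEC-1, a log2 fold change of 0.59 (SE 0.03, adjusted p = 3.5e-13).

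All 4 nucleotide synthesis genes were lower in EA.hy926, within a narrow range. RRM1, the large subunit of ribonucleotide reductase, stood at 140, 144, 159, 158 and 160 CPM in EA.hy926 and at 258, 264, 263, 266 and 261 CPM in HMEC-1. Its lines did not overlap and its log2 fold change was -0.78 (SE 0.03, adjusted p = 2.9e-15). RRM2, the small subunit, which limits the enzyme through the cell cycle, was at 273 ± 18.3 and 408 ± 6.49 CPM, a log2 fold change of -0.58. The per-kilobase ratio of RRM1 to RRM2 was 1.21 in EA.hy926 and 1.39 in HMEC-1, a log2 difference of -0.20 (exact permutation test, p = 0.00794, adjusted 0.00952), and with the lengths of the MANE Select transcripts it was 0.579 and 0.667, so that which of them was more abundant depended on the length. TYMS, which makes thymidylate, and TK1, which salvages thymidine, had log2 fold changes of -0.50 and -0.55. Their ratio was 4.61 in EA.hy926 and 4.77 in HMEC-1 and did not pass the test (log2 difference -0.05, exact permutation test, p = 0.532). ENOSF1 on the opposite strand overlaps 47.9% of the exonic bases of TYMS.

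In chromatin assembly, CHAF1A and CHAF1B encode subunits of CAF-1, which deposits histones behind the fork. CHAF1B stood at 26.2, 25.8, 28.7, 27.9 and 29.9 CPM in EA.hy926 and at 56.9, 55.9, 59.1, 59.2 and 55.9 CPM in HMEC-1. The libraries of the lines were apart, with a log2 fold change of -1.05 (SE 0.04, adjusted p = 2.8e-16). CHAF1A had a value of -0.69, and the per-kilobase ratio of CHAF1A to CHAF1B was 3.22 in EA.hy926 and 2.51 in HMEC-1, a log2 difference of 0.36 (exact permutation test, p = 0.00794, adjusted 0.00952). SLBP, which binds histone mRNAs, had a log2 fold change of -0.40.

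The 6 members that were higher in EA.hy926 lie on 4 chromosomes (coordinates of GENCODE, GRCh38). E2F7, PRIM1 and UNG are on chromosome 12, where the median log2 fold change of the 897 genes tested was 0.41, and PCNA is on chromosome 20, where that of 428 genes was 0.79. POLE and RFC5 on chromosome 12, and E2F1 and GINS1 on chromosome 20, were lower all the same. E2F8 is on chromosome 11 (median 0.18) and CCNE1 on chromosome 19, at 29811991 to 29824312, with a median of -0.06. RFC3 is on chromosome 13, at 33818069 to 33966558, where the median of 285 genes was -0.75. Whether a gene's chromosome had a part in its difference was not tested.

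Within EA.hy926 the members moved together from library to library. Replicate 1 had the lowest level of the line for 33 of the 44 members, and in replicate 5 only 1 member was below the line's mean. The median deviation of the members from the line's mean was -0.10, -0.05, 0.04, 0.02 and 0.08 on the log2 scale in replicates 1 to 5. That of all genes tested lay between -0.0044 and 0.0056. The summed level of the G2 and mitosis genes was likewise lowest in EA.hy926 replicate 1, at 3622 CPM, and highest in replicate 5, at 3860 CPM. In HMEC-1, replicate 1 had the lowest level of the line for 19 of the 44 members. The median coefficient of variation of the members was 6.53% in EA.hy926 and 2.77% in HMEC-1. Without replicates 1 and 2 of EA.hy926, which was tried after the data were seen, 37 members were still called lower and 6 higher at the adjusted p, and 14 and 1 past both thresholds.

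The neighbouring genes of the cell cycle, in lists set by role with earlier results known, moved in the same direction for the most part. Their counts at the adjusted p stand beside 43.3% of all genes tested lower in EA.hy926 and 42.6% higher. Of 38 other replication factors 32 were lower in EA.hy926 and 5 higher, with a median log2 fold change of -0.59. RNASEH2B, a subunit of the nuclease that removes ribonucleotides from DNA, had the largest difference, with 30 to 48 counts in EA.hy926 libraries and 1138 to 1541 in HMEC-1 (log2 fold change -5.0), and POLD4, a small subunit of the lagging-strand polymerase, was the highest at 1.32. Of 11 other genes of nucleotide metabolism 7 were lower and 4 higher (median -0.68), from DUT, which clears dUTP, at -1.39 to RRM2B, a small subunit of ribonucleotide reductase induced by p53, at 2.16. RRM2B stood at 207 ± 6.78 CPM in EA.hy926 and 46.2 ± 1.70 in HMEC-1, opposite to RRM2. Of 14 E2F partners, pocket proteins and MuvB subunits 9 were lower and 2 higher (median -0.57). MYBL2, itself an activator of late cell cycle genes, was lowest at -2.16, and E2F4 was highest at 0.33. RB1 and TFDP1, a partner with which the activating E2F factors bind DNA, were at -1.65 and -1.64. Both lie on chromosome 13, as RNASEH2B and RFC3 do, where the median of 285 genes tested was -0.75. A part of the chromosome in these values was not tested.

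The other lists stood as follows, beside the same 43.3% of all genes tested lower in EA.hy926 and 42.6% higher. Of 6 other histone chaperones and partners 4 were lower and 1 higher (median -0.52), from HAT1, a histone acetyltransferase, at -1.89 to ASF1A, a chaperone, at 0.14. All 11 genes of S-phase repair were lower (median -0.80), with CHEK1, the checkpoint kinase, closest to 0 at -0.27. Of the 12 G1 regulators tested 9 were lower and 3 higher (median -0.53). CCND1, one of the D cyclins that act ahead of the E cyclins, was at 761 ± 18.7 CPM in EA.hy926 and 114 ± 4.26 in HMEC-1. Its log2 fold change was 2.73. CCND3, another D cyclin, went the other way, at 31.1 ± 1.34 CPM against 122 ± 2.24, a log2 fold change of -1.97. CCND2 was not tested, with 0 to 1 counts in EA.hy926 libraries and 4 to 10 in HMEC-1. CDKN1C, a CDK inhibitor, had 0 to 3 counts in EA.hy926 libraries and 31 to 51 in HMEC-1, at least 11.6-fold lower against a floor of 3 counts per library, and the median of the list was the same with the gene at that bound. Of 22 genes of G2 and mitosis 20 were lower and 2 higher (median -0.76), from CCNA2, the cyclin of S phase and G2, at -1.55 to UBE2C, a mitotic ubiquitin-conjugating enzyme, at 0.76. They summed to 3622 to 3860 CPM in the EA.hy926 libraries, below the 5915 to 6131 CPM of HMEC-1, and MKI67, the marker of cycling cells, had a log2 fold change of -1.0. These medians are descriptions, and none was tested against another.

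**Figure D5:**
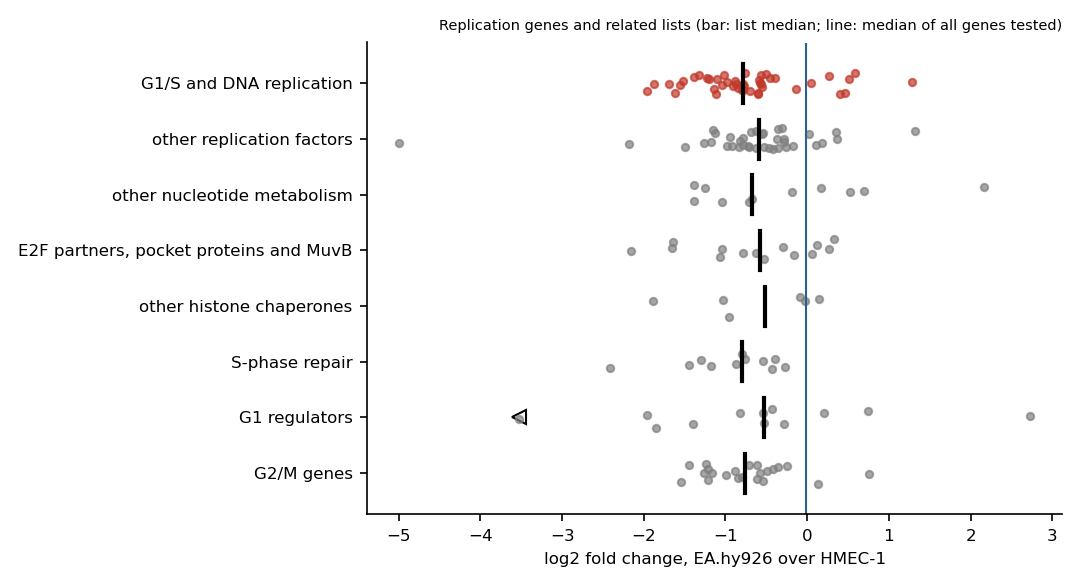
Log2 fold change between EA.hy926 and HMEC-1 of each gene tested (points, spread vertically to be seen) of the replication genes (red) and 7 related lists (grey), with the list's median as a black bar and the median of all genes tested as a blue line. The open triangle is CDKN1C at its bound; every list has its median left of the blue line.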

How the data were processed

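RNA was measured in 10 libraries, 5 of EA.hy926 and 5 of HMEC-1, grouped by the labels. The authors deposited raw counts per gene, made from poly(A) reads cleaned with fastp and aligned with HISAT2 to GRCh38. The counting tool is HTSeq by the study's methods and featureCounts by the submitters' processing notes, and its strand setting, annotation release and versions are not given in the sources used here. The counts were matched by gene identifier to GENCODE 44, which named 56434 of 60448 genes, and 27377 genes were at 0 in all libraries. Genes were kept by filterByExpr (minimum count 10, minimum total 15), scaled by TMM (EA.hy926 factors of 0.942 to 0.964, HMEC-1 factors of 1.04 to 1.05) and tested with edgeR 4.0.16 in R 4.3.3 on all 10 libraries, with Benjamini-Hochberg adjustment over 16310 genes. The study's thresholds were used, an adjusted p of 0.05 and an absolute log2 fold change of 1. Each SE was taken from the F value, as the absolute log2 fold change over its square root.

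Levels of different genes were compared per kilobase of the union of a gene's exons, and 6 ratios of such levels by a two-sided exact permutation test over libraries. Alternatives were DESeq2 1.42.0, limma-voom (limma 3.58.1), other scalings and filters, glmTreat, a replicate block, other transcript lengths and leaving out each library. On simulated data with 193 changed genes (3-fold) of 16049 tested, edgeR recovered 191 with 17 false calls. In the data themselves 85.8% of genes tested passed the adjusted p, and the simulation held no scaling shift between the lines. It therefore cannot speak for the scaling or for changes smaller than 3-fold. The members and lists were chosen with earlier results of these data known. Every member was named, and values in each library were given for the members past both thresholds (at most the 6 furthest from 0 in each direction), for the member furthest from 0 in each role and for those that did not pass. Of each related list the genes with the highest and lowest log2 fold change were named, with GMNN, except 1 gene that is not reported here. RB1, TFDP1, GINS4, CCND2, CCND3, MKI67 and the marker genes were named outside that rule, after their values were seen. The replicates are independent cultures of 1 line each, so p-values measure the spread between cultures and not between donors. Library pairs of a line differed by 3.11 to 7.80 times the sampling noise (chi-square per degree of freedom), so none was a resequencing of another. This check cannot tell separate cultures from separate libraries of 1 culture.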

Additional observations from a re-analysis of the deposited data

Results flagged for a closer look

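Among 100 groups of 5 libraries examined for a value far from the others by Dixon's criterion (critical value 0.71), 3 were found, where chance alone flags about 1 in 20 groups. E2F2 was highest in EA.hy926 replicate 5, at 10.1 CPM, with a gap of 0.804 of the group's range to the next library. MCM3 was lowest in HMEC-1 replicate 1, at 288 CPM, with a gap of 0.747 of the range. RFC5 was highest in HMEC-1 replicate 5, at 62.0 CPM, with a gap of 0.727 of the range. In each of these genes the lines did not overlap with the library included.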

How the results depend on the processing

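The counts of members at the adjusted p were 37 lower and 6 higher in each alternative except library totals, where GINS3 turned to a log2 fold change of -0.087 (adjusted p = 0.0342) and 38 were lower. Past both thresholds, 15 were lower in DESeq2, limma-voom and the replicate block, 13 with glmTreat, 19 with library totals and 14 to 16 with a library left out. GINS3 with library totals was the 1 member value that changed its sign or its side of the adjusted p threshold, and 791 did not. The median log2 fold change was -0.92 with library totals and -0.72 without EA.hy926 replicates 1 and 2, an alternative chosen after seeing the data, against -0.81 to -0.75 with 1 library left out. With library totals, 3 other replication factors, 0 histone chaperones and 1 gene of G2 and mitosis were higher. Replicate numbers did not pair the libraries: the deviations of same-numbered libraries correlated at -0.023 to 0.039, and 2 of 5 correlated best with their own number. With the numbers taken as a replicate block, the log2 differences of the ratios were 3.24 (CCNE1 to CCNE2), 0.44 (E2F1 to E2F3), -0.20 (RRM1 to RRM2), 1.32 (CDT1 to GMNN) and 0.36 (CHAF1A to CHAF1B), each with an exact permutation p of 0.0625, the smallest that 5 pairs allow. The highest over the lowest level per length was, in the MCM ring, 3.23 (longest transcript) and 3.04 (MANE Select) in EA.hy926 and 3.53 (MANE Select) in HMEC-1. In GINS it was 3.87 and 5.12 in EA.hy926 and 2.45 and 2.39 in HMEC-1, in the order of longest and MANE Select. In the clamp loader it was 2.20 (MANE Select) in EA.hy926, and 2.01 (longest) and 1.83 (MANE Select) in HMEC-1. MANE Select lengths were also tried after seeing the data.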
